A study of Mus musculus with 21 samples.

Results

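The genes described here are 7 genes that mark B lineage cells, Cd79a, Cd79b, Ms4a1, Pax5, Ebf1, Cd22 and Ighm. They were read by their Ensembl identifiers from the raw count tables of 21 RNA-seq libraries, in which each of the 7 matched 1 of 45706 genes, and all 7 were among the 19555 genes that passed the filter on low counts. The libraries came from a mouse model of juvenile myelomonocytic leukemia and from 3 sorted fractions, none of which was selected for B cells. LSK cells, the stem and progenitor fraction of the BM, were sorted as Sca1+ cKit+ cells after lineage depletion, and myeloid cells that carry CD11b were enriched from BM and spleen on magnetic columns. Each fraction held 2 MxCre, 2 Ptpn11D61Y/+ and 3 S3 libraries. MxCre mice carry Cre under the interferon-inducible Mx1 promoter, and the labels call both MxCre and Ptpn11D61Y/+ mice controls. Ptpn11D61Y/+ mice carry the D61Y allele of Ptpn11, which encodes the phosphatase SHP2, without Cre to switch it on. By the paper, a stop cassette keeps that allele inactive, which leaves them 1 working Ptpn11 allele and resembles a heterozygous knock-out. It gives MxCre mice normal Ptpn11 levels, so the 2 controls differ in Ptpn11. S3 mice are MxCre;Ptpn11D61Y/+ mice at the last, terminally ill disease stage, in which Cre acts in every interferon-responsive cell and not in 1 lineage. All mice, the controls included, received poly I:C to induce Cre by the study's methods, although the labels state no treatment, and the labels give no age. The sample titles give only a number for each S3 library, which is read here as an animal. By these numbers, S3 animals 540 and 815 gave all 3 fractions, animal 640 gave both CD11b+ fractions and animal 768 the LSK fraction. The methods speak of several mice per genotype for the CD11b+ fractions of MxCre and S3 mice, but which mouse gave which control library is not stated. The p-values thus measure the spread between libraries, and in bulk RNA fewer B cells and less RNA per B cell cannot be told apart.

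B cells carry the B cell receptor, a membrane immunoglobulin whose heavy chain in naive cells is encoded by Ighm, and which signals through the CD79A and CD79B chains. The transcription factors EBF1 and PAX5 commit lymphoid progenitors to the B lineage and hold them there. MS4A1 (CD20) is a membrane protein of B cells after the earliest stages, and CD22 is an inhibitory coreceptor that rises as B cells mature. Plasma cells, the antibody-secreting end stage, switch off PAX5 and EBF1 while they transcribe immunoglobulin genes at very high levels, together with Jchain, whose product joins IgM and IgA into polymers.

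The libraries held between 34992610 and 104509425 counts. The lowest count of any of the 7 genes in any library was 56, for Ms4a1 in LSK S3 animal 768, so every gene was detected in every library. Levels are given as CPM, counts relative to library size, scaled by TMM (trimmed mean of M values) factors, which ran from 1.34 to 1.49 in LSK and from 0.599 to 1.18 in CD11b+ libraries. Without these factors every log2 change from LSK to BM CD11b+ cells would be shifted by -0.86, every change from MxCre to Ptpn11D61Y/+ spleen cells by 0.63 and every change from MxCre to S3 spleen cells by 0.44. Kit, the receptor used to sort LSK cells, had 288 to 533 CPM in LSK and at most 73.2 CPM in the CD11b+ libraries. Itgam, which encodes CD11b, had 151 to 1665 CPM in the CD11b+ libraries and 31.6 to 114 CPM in LSK. Ly6a, which encodes Sca1, did not separate the fractions, with 42.5 to 76.1 CPM in LSK (median 60.4), 22.6 to 238 CPM in BM and 3.18 to 313 CPM in spleen CD11b+ libraries (median 126).

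Some libraries stood apart. BM MxCre replicate 1, spleen MxCre replicate 1 and BM S3 animal 815 had the fewest genes with a count, at 14885, 14641 and 14761, against at least 17493 in the other 18. Counts of Xist, the transcript of the inactive X chromosome in females, and of 4 Y-linked genes were both present at over 1 CPM in 3 CD11b+ libraries. These 3 are called the libraries with Xist and Y-linked counts below. In BM MxCre replicate 2 they amounted to 54.1 and 36.3 CPM, in BM S3 animal 540 to 51.3 and 17.7 CPM, and in spleen S3 animal 540 to 9.23 and 54.8 CPM (all 3 pairs scaled by library size alone). The LSK library of animal 540 held Y-linked counts and 1 count of Xist. Among the Ptpn11D61Y/+ libraries, replicate 1 held Xist and no Y-linked count in the spleen, but Y-linked counts in LSK and BM. Whether a replicate number marked 1 mouse across fractions is thus not known. Whether any of these libraries held RNA of more than 1 mouse, or was exchanged, was not tested, and the labels do not tell. The 7 genes are therefore also given without these 3 libraries in the comparisons that use them. By the same counts, sex was not balanced between groups. In LSK, every control library held Y-linked counts at 177 to 209 CPM and Xist at 0.126 to 0.163 CPM. The LSK libraries of S3 animals 815 and 768 held Xist at 578 and 948 CPM and no Y-linked count. Sex and genotype thus cannot be fully told apart in comparisons that use these libraries, and the part of sex was not tested.

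The 7 genes lie on 5 chromosomes of GRCm38. Cd79a lies on chromosome 7 (24897381-24902197, plus strand), as does Cd22 (30865402-30880342, minus strand). Cd79b (106311341-106314762, minus strand) and Ebf1 (44617317-45008091, plus strand) lie on chromosome 11, Ms4a1 on chromosome 19 (11249675-11266241, minus strand), Pax5 on chromosome 4 (44524757-44710487, minus strand) and the Ighm constant region on chromosome 12 (113418558-113422730, minus strand). Ms4a1, Pax5, Ebf1 and Cd22 each overlap at least 1 annotated transcript on the opposite strand. The study's methods name a stranded kit, but whether the counting used strand is not given in the sources used here, so counts of these genes may include reads of the overlapping transcripts. RefSeq promoters (GRCm38.p6) were at hand for 4 of the 7 genes, Cd79a, Pax5, Ebf1 and Cd22, and were searched on both strands because pairs of the genes were positively correlated across the CD11b+ libraries. Cd79a, a known EBF1 target, is shown for the letters CAAGGGAAT of an EBF half-site, which are in capitals. RefSeq starts the gene at 24897497, which lies 116 bases inside the Ensembl gene given above, and the 250 bases before the RefSeq start, chr7:24897247-24897496 on the plus strand, read 5′ to 3′:
Cd79a: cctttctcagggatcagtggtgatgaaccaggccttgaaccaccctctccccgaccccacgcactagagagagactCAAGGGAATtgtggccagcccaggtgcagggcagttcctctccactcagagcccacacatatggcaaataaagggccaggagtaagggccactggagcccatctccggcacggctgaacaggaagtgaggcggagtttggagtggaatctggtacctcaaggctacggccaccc
These letters lie 174 to 166 bases before the RefSeq start and occur in 80 of 32851 promoter windows of 300 bases (0.244%). The EBF palindrome was matched in Cd22 at 49 to 40 bases before its RefSeq start, which lies 1314 bases inside the Ensembl gene, and occurs in 297 windows (0.904%), and the octamer ATTTGCAT was in none of the 4 and in 570 windows (1.74%). A match of letters is a description of the window and not a measured binding site.

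Across fractions, 6 of the 7 genes had their lowest median in LSK, whereas Ighm had its highest there, as the plot of levels by fraction and genotype displays. Cd79b, the signalling chain with the narrowest spread, ran from 21.1 to 36.8 CPM in LSK (median 28.3), from 70.4 to 511 CPM in BM CD11b+ cells (median 345) and from 39.6 to 523 CPM in spleen CD11b+ cells (median 266). Cd79a, its partner, ran from 8.85 to 62.9 CPM in LSK (median 29.5), from 38.6 to 605 CPM in BM (median 144) and from 8.08 to 762 CPM in the spleen (median 235). The CD11b+ libraries thus overlapped LSK at their low end for Cd79a and did not for BM Cd79b. Pax5 had medians of 5.24, 47.7 and 33.9 CPM in LSK, BM and spleen, and Ebf1 of 3.75, 30.4 and 7.12 CPM. Ms4a1 had medians of 3.20, 15.6 and 46.3 CPM and Cd22 of 7.42, 31.1 and 156 CPM in the same order, so by their medians these surface proteins were highest in the spleen and the transcription factors in the BM. Ighm had medians of 10610, 1479 and 2237 CPM.

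**Figure D1:**
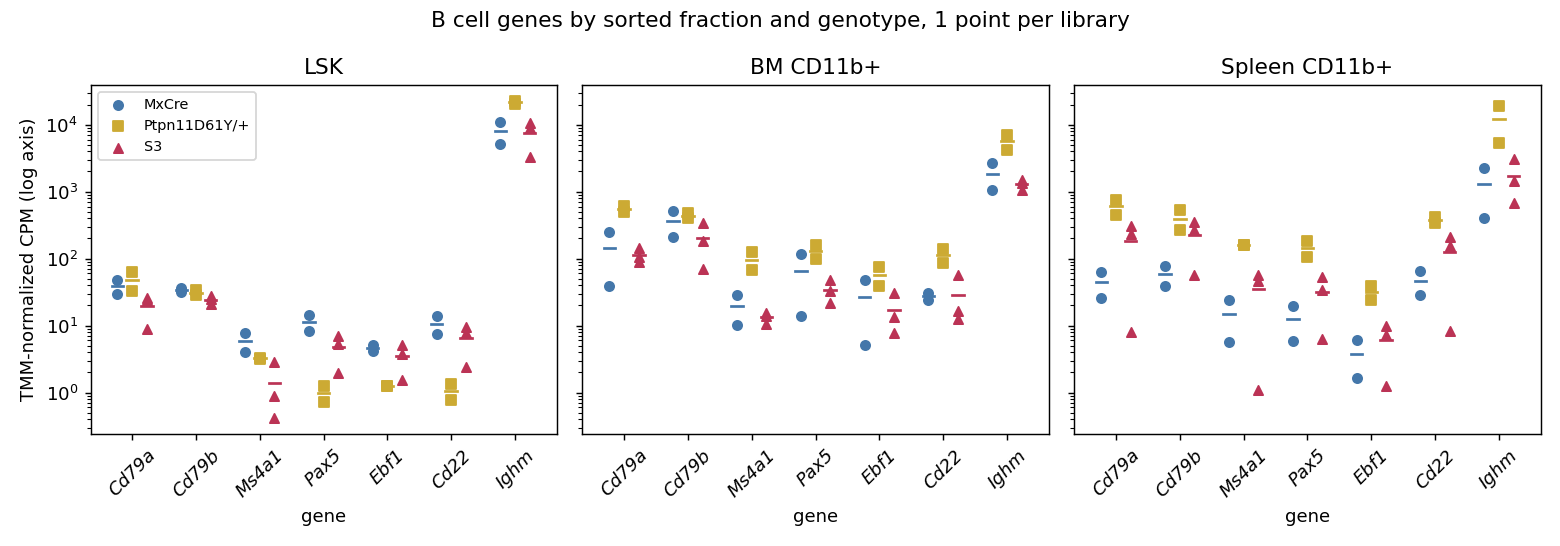
TMM-normalized CPM (log axis) of the 7 B cell genes in each of the 21 libraries, in 1 panel per sorted fraction; each point is a library, colored by genotype, and each line is the mean of a group. Ighm has at least 3252 CPM in the LSK libraries, in which the other 6 genes reach at most 62.9 CPM, and in the spleen the Ptpn11D61Y/+ points lie above the MxCre points for all 7 genes.

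Within a library the genes differed widely, compared per kilobase of exon. In LSK, the median level per kilobase was 5625 CPM for Ighm, followed by 20.3 for Cd79a and 19.8 for Cd79b, whose ranges overlapped. Cd22, Pax5, Ms4a1 and Ebf1 followed at 1.47, 0.592, 0.517 and 0.384 CPM per kilobase, with overlapping ranges. In the spleen, the order was Ighm at 1186, Cd79b at 186, Cd79a at 162, Cd22 at 31.0, Ms4a1 at 7.49, Pax5 at 3.83 and Ebf1 at 0.730 CPM per kilobase. In BM CD11b+ cells it was Ighm at 784, Cd79b at 241, Cd79a at 98.5, Cd22 at 6.16, Pax5 at 5.39, Ebf1 at 3.12 and Ms4a1 at 2.51. Ms4a1 was thus below Pax5 and Ebf1 in the BM and above both in the spleen, as medians of libraries with overlapping ranges.

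The spread between libraries of a fraction was widest in the spleen. The highest library exceeded the lowest by 145 times for Ms4a1, 94.2 times for Cd79a and 49.2 times for Cd22 there, and by at least 13.2 times (Cd79b) for the other genes. In the BM the 7 ratios ran from 6.72 (Ighm) to 15.7 (Cd79a), and in LSK from 1.74 (Cd79b) to 19.7 (Pax5). S3 animal 640 set the low end in the spleen for Cd79a, Ms4a1, Ebf1 and Cd22, with 8.08, 1.10, 1.27 and 8.40 CPM. The other S3 animals, 540 and 815, had 304 and 235 CPM of Cd79a.

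BM CD11b+ cells differed from LSK in all 7 genes. As the mean over the 3 genotypes, 6 genes were higher in BM CD11b+ cells by log2 fold changes of 2.64 ± 0.60 (Cd79a; ± standard error throughout), 3.42 ± 0.43 (Cd79b), 3.30 ± 0.66 (Ms4a1), 4.14 ± 0.57 (Pax5), 3.45 ± 0.58 (Ebf1) and 3.42 ± 0.59 (Cd22), while Ighm was lower by -2.20 ± 0.48. The adjusted p-values (edgeR) ran from 1.05e-05 for Cd79b to 0.00157 for Cd79a. Of all genes tested, 58.4% were called in this comparison, 26.8% as higher and 31.6% as lower, so that being called is in itself common here. All 7 calls held under each of the other tools, scalings and left-out libraries that were tried, and in a fit blocked on animal or number. Without the 3 libraries with Xist and Y-linked counts, the log2 fold changes of the 6 higher genes ran from 1.92 (Cd79a) to 3.46 (Pax5), and Ighm was at -2.50.

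Genes of other stages and of B cell receptor signalling were read from lists. Of 20 genes of mature B cells, 15 rose from LSK to BM CD11b+ cells and 0 fell, among them Spib, encoding a transcription factor of B cells and dendritic cells (4.92 ± 0.67), Fcer2a (CD23, 3.89 ± 0.62) and Cxcr5 (a homing receptor of B cell follicles, 3.80 ± 0.54). Of 16 signalling genes, 11 rose and 2 fell, with Blnk, an adaptor, at 3.15 ± 0.33. The medians were 2.46 and 1.33, against -0.17 over all genes tested. Of 15 T cell genes, 11 rose in the same comparison (median 2.92, Cd3d 6.0 ± 0.51). Of 9 NK cell genes, 4 rose and 0 fell, where 58.4% of all genes tested were called, 26.8% as higher. The NK cell median was 1.29, and 0.22 without the 3 libraries with Xist and Y-linked counts. The summed T cell genes amounted to between 177 and 470 CPM in the BM CD11b+ libraries and 63.8 to 85.9 CPM in LSK. The 9 measured erythroid genes all rose, and their sum, led by Hba-a1 or Hbb-bs, reached 14790 to 223600 CPM in the BM CD11b+ libraries against 50.8 to 1541 CPM in LSK. Without the 3 libraries with Xist and Y-linked counts, 14 of 20 mature B cell genes rose and 2 fell (median 2.16), the signalling list still had 11 and 2, and 3 of 15 T cell genes rose. The only MxCre BM library was then replicate 1, in which 8 T cell genes were at 0, so no median is given for that list. How far these cells, or their RNA, took part in the differences was not tested.

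Ighm did not follow the other 6 genes in LSK. It had between 3252 and 22750 CPM there, while the other 6 genes together summed to between 41.6 and 126 CPM. For each count of Pax5, LSK libraries held between 605 and 28360 counts of Ighm (median 1655), BM CD11b+ libraries between 22.8 and 75.9 (median 41.9) and spleen CD11b+ libraries between 43.2 and 114 (median 70.5), so the LSK range lay wholly above the others. The ratio of Jchain to Pax5 counts ran from 91.3 to 5312 in LSK (median 172), with medians of 5.22 in BM and 4.09 in spleen CD11b+ cells, although BM MxCre replicate 1 reached 157. Igha, the heavy chain of IgA, had medians of 6096, 2191 and 281 CPM in LSK, BM and spleen. These ratios do not depend on the scaling factors, but they compare genes of different length and are read only between libraries.

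**Figure D2:**
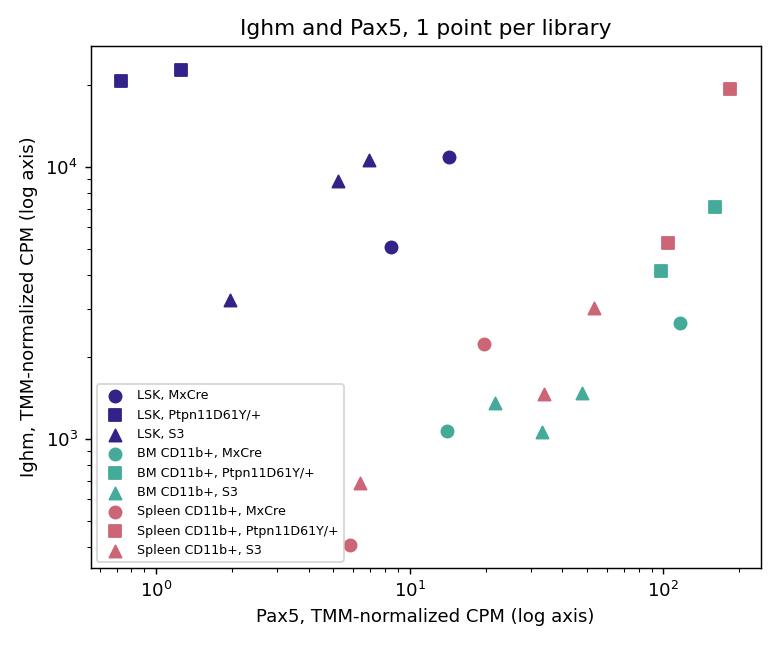
Ighm against Pax5 in each of the 21 libraries, both as TMM-normalized CPM on log axes; color marks the fraction and shape the genotype. The 7 LSK libraries lie at the upper left, with Pax5 at most 14.4 CPM and Ighm at least 3252 CPM, and the 14 CD11b+ libraries lie along a separate rising band.

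All immunoglobulin genes together took between 1.32% and 11.7% of the counts in LSK libraries (median 4.0%), 0.392% to 2.19% in BM and 0.0722% to 4.38% in spleen CD11b+ libraries. The 95% Wilson intervals were at most ± 0.0069 percentage points wide and cover counting error only. Of the heavy-chain constant counts, Ighm made up 43.0% to 89.0% in LSK, 6.23% to 68.7% in BM and 56.0% to 94.9% in spleen CD11b+ libraries. IgG genes made up 13.3% to 38.3% in BM CD11b+ libraries and at most 6.65% in LSK, so these ranges did not overlap. Ighd, whose transcript mature naive B cells make beside Ighm, made up 0.00697% to 0.367% in LSK and 0.107% to 1.89% in BM. BM MxCre replicate 1, among the libraries with the fewest genes, had the lowest Ighm share, 6.23%, and the highest Igha share, 73.1%. Of 14 plasma cell genes, 4 rose and 2 fell from LSK to BM CD11b+ cells, where 26.8% and 31.6% of all genes did. Ighg1, Ighg2c, Ighg2b and Irf4 rose by 4.40 ± 0.93, 2.88 ± 0.41, 2.34 ± 0.59 and 1.99 ± 0.42. The 2 that fell, named after their values were seen, were Derl3 (-1.66 ± 0.46) and Fkbp11 (-0.95 ± 0.32), which serve the endoplasmic reticulum. The plasma cell list had a median of -0.34 and the light chain constant genes of 0.17, with 0 of 4 called. Without the 3 libraries with Xist and Y-linked counts, these medians were -0.53 and 0.23.

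**Figure D3:**
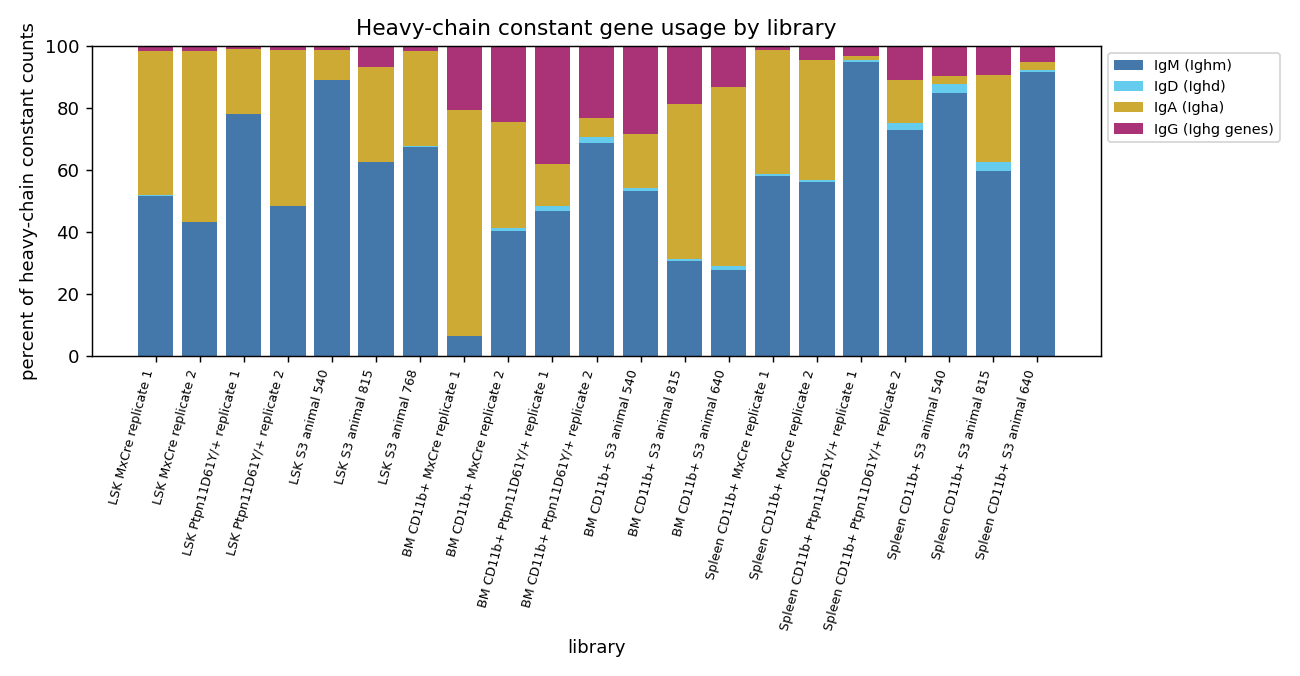
Share of heavy-chain constant gene counts (percent) that fell on Ighm, Ighd, Igha and the Ighg genes in each library, as stacked bars that start at 0. IgG segments are widest in the BM CD11b+ libraries, at 13.3% to 38.3%, and IgM takes at least 56.0% in the spleen CD11b+ libraries.

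Early B cell genes were lower in spleen than in BM CD11b+ cells. Of the 7 genes, Ebf1, which acts from the earliest committed stage, was lower in the spleen by -1.72 ± 0.54 (adjusted p = 0.0445, edgeR), and the other 6 were not called, against 14% of all genes tested in either direction and 7.4% as lower. Cd22 was higher by 1.54 ± 0.54 (adjusted p = 0.0698), and Cd79a, Cd79b, Ms4a1, Pax5 and Ighm differed by -0.29, -0.86, 0.57, -0.78 and 0.35. The Ebf1 call was lost without the 3 libraries that held Xist and Y-linked counts (-1.15, adjusted p = 0.234), and also with library size alone, without the filter on low counts, with limma-voom, in a fit of the 14 CD11b+ libraries alone and with the replicate block, at adjusted p-values between 0.062 and 0.11. With the block, Cd79b was called instead (-0.91, adjusted p = 0.0402), and without the 3 libraries the other 6 genes lay between -0.66 (Cd79b) and 1.31 (Cd22), with 0 called. Of 16 early B cell genes, 13 fell in the spleen and 0 rose (median -3.91 against 0.07 over all genes tested). The genes of recombination and of the surrogate light chain, with which developing B cells assemble and test a heavy chain, accounted for the lowest values. Rag1 had a median of 9.62 CPM in BM CD11b+ libraries and was at 0 in 4 of the 7 spleen libraries, with 1.39 CPM as the highest there. Igll1, of the surrogate light chain, ran from 0.913 to 70.3 CPM in the BM (median 42.1) and reached at most 1.25 CPM in the spleen. Dntt, which adds bases at the joints, had 141 to 286 CPM in LSK, a median of 57.6 CPM in BM and at most 1.42 CPM in spleen CD11b+ cells. BM MxCre replicate 1 and BM S3 animal 640 stood apart from the other BM libraries, with 0.784 and 2.89 CPM of Dntt against at least 44.4 CPM.

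**Figure D4:**
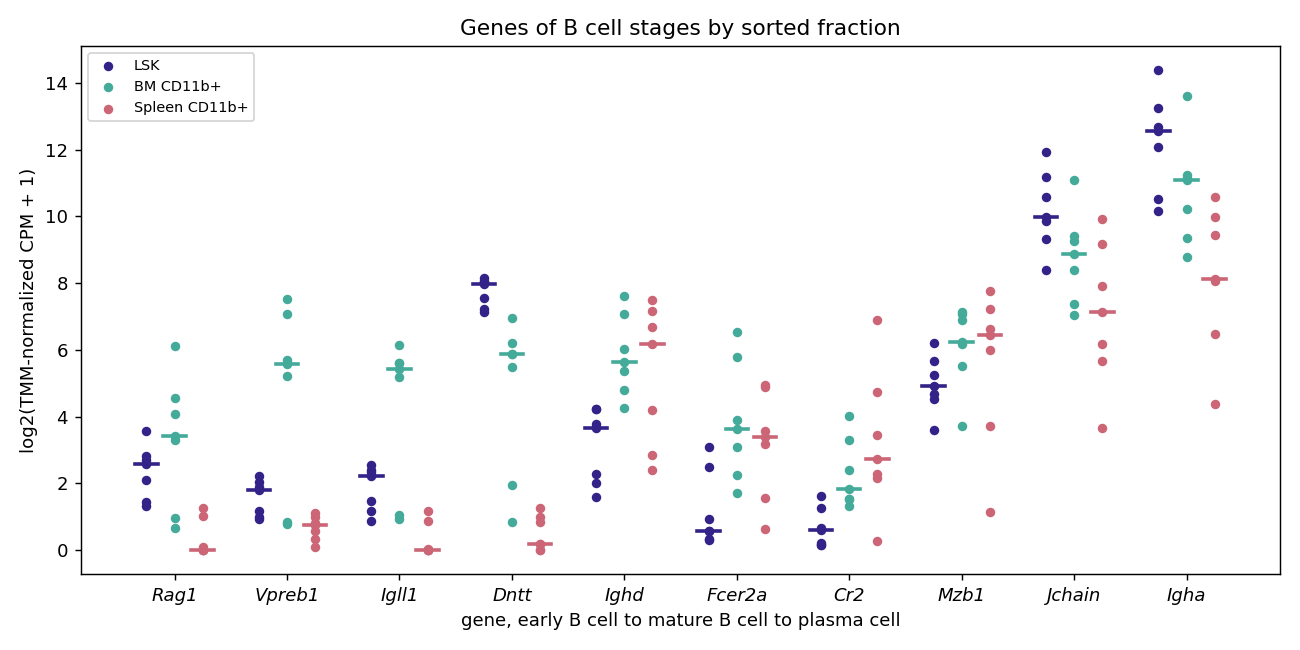
Genes of B cell stages on the scale log2(TMM-normalized CPM + 1) in the 21 libraries, from early genes on the left through mature B cell genes to plasma cell genes on the right; points are libraries colored by fraction and lines are medians of 7 libraries. Rag1, Vpreb1, Igll1 and Dntt lie near 0 in the spleen, and Jchain and Igha are highest in LSK by their medians.

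Of 20 mature B cell genes, 4 rose in the spleen and 0 fell (median 0.19), where 1283 of the 19555 genes tested rose. The 4 were Ciita (2.46 ± 0.47) and Cd74 (2.03 ± 0.43), which serve antigen presentation in B cells and in dendritic cells and macrophages alike, Bank1 (1.38 ± 0.34) and Fcrl1 (1.04 ± 0.30). Of 16 signalling genes, 6 rose, among them Bank1, the coreceptor subunit Cd81 (0.93 ± 0.25) and the kinase Lyn (0.90 ± 0.22), the last of which myeloid cells use too. Of 6 dendritic cell genes, 5 rose in the same comparison, with Zbtb46 at 3.07 ± 0.49, and their sum ran from 361 to 962 CPM in the spleen and from 39.6 to 372 CPM in the BM libraries. Of 14 plasma cell genes, 5 fell in the spleen and 0 rose (median -1.15), led by Ighg1 (-3.84 ± 0.90), Ighg2c (-3.29 ± 0.42) and Ighg2b (-3.23 ± 0.61). All 9 measured erythroid genes and 8 of 15 T cell genes fell too, and their part in the result was not tested. Without the 3 libraries with Xist and Y-linked counts, 10 early genes fell (median -2.89), 1 mature gene and 0 signalling genes rose (medians 0.57 and 0.68), 4 plasma cell genes fell, 4 dendritic cell genes rose, 6 erythroid genes fell and 1 of 15 T cell genes fell, with 1118 genes called in all in place of 2730.

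In the spleen, all 7 genes were higher in both Ptpn11D61Y/+ libraries than in both MxCre libraries. Cd79a had 443 and 762 CPM against 62.3 and 25.8 CPM. Pax5 had 184 and 105 CPM against 19.6 and 5.80 CPM, and Ighm 19240 and 5243 CPM against 2237 and 409 CPM. No gene overlapped between the groups. With 2 libraries in each, this is a description, and the share of all genes that did not overlap is not given. The log2 fold changes were 3.77 ± 1.15 for Cd79a, 2.75 ± 0.76 for Cd79b, 3.41 ± 1.21 for Ms4a1, 3.50 ± 1.01 for Pax5, 3.05 ± 1.05 for Ebf1, 3.01 ± 1.05 for Cd22 and 3.21 ± 0.91 for Ighm, with a median of 3.21 against 0.20 over all genes tested. Only Cd79b was called (adjusted p = 0.0474, edgeR), while the adjusted p of the other 6 lay between 0.0525 and 0.0999, and 5.11% of all genes tested were called, 2.1% as higher. With the replicate number as a block in the 12 control libraries, edgeR called Cd22 and Ighm (adjusted p = 0.0432 and 0.042) but not Cd79b (adjusted p = 0.0746). With library size alone, 1429 of all genes were called as higher, in place of 410. The number of the 7 called depended on the method, with 7 by DESeq2, 3 by limma-voom, 5 with library size alone and 0 without the filter on low counts. It was 0 without MxCre replicate 2, without Ptpn11D61Y/+ replicate 1 or without Ptpn11D61Y/+ replicate 2, and the log2 fold changes stayed between 1.99 and 4.91 with any 1 of the 4 libraries left out. Without the 3 libraries with Xist and Y-linked counts, none of which belongs to these groups, Pax5 was called (adjusted p = 0.032) and Cd79b was not (adjusted p = 0.0568).

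**Figure D5:**
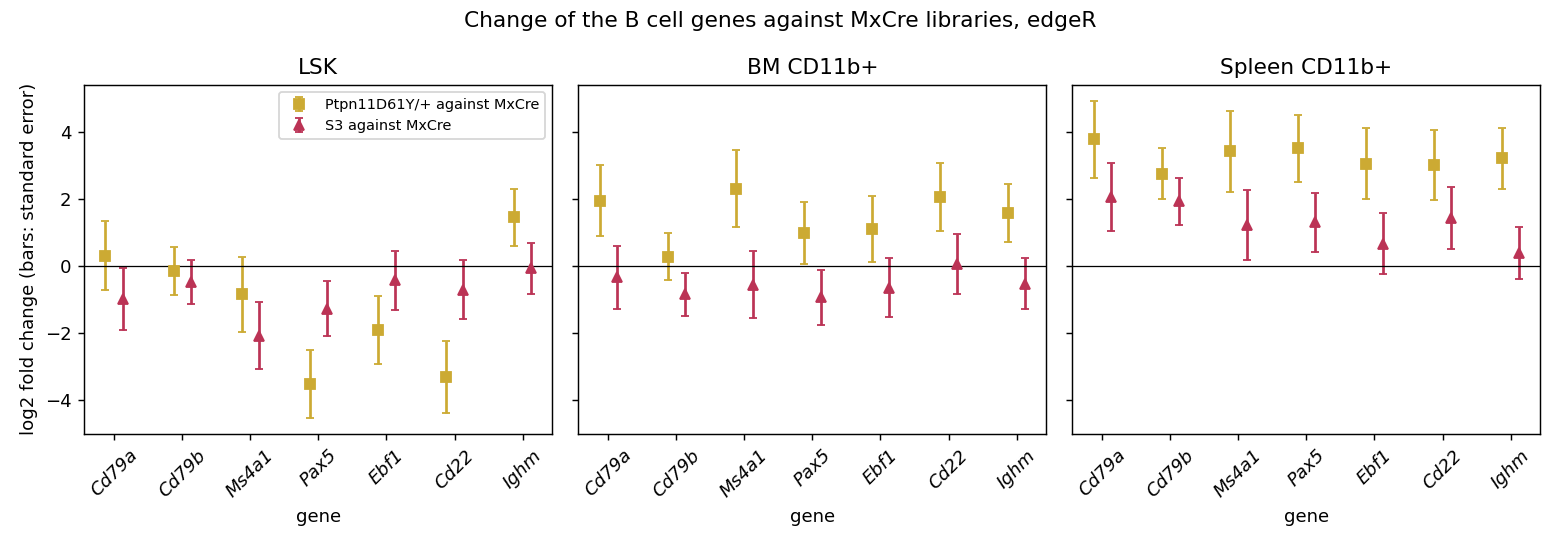
Log2 fold change of the 7 B cell genes against MxCre libraries in each fraction, from edgeR, for Ptpn11D61Y/+ (squares) and S3 (triangles) libraries; bars are standard errors and the line is no change. The 2 sets share the MxCre libraries, all values lie above 0 in the spleen, and Pax5 and Cd22 lie lowest in Ptpn11D61Y/+ LSK.

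Other B cell genes moved in the same comparison. Of the 20 mature B cell genes, 6 rose and 0 fell (median 2.73, positive for all 20), with Cd72, an inhibitory receptor, at 4.90 ± 1.06, Pou2af1, a coactivator of immunoglobulin genes, at 4.58 ± 0.99 and Cr2 (CD21) at 4.30 ± 1.13. Cd72 had 147 and 201 CPM in the Ptpn11D61Y/+ libraries against 3.58 and 8.05 CPM in the MxCre libraries. Of 16 signalling genes, 3 rose, among them Cr2 and Bank1 (2.44 ± 0.64), which are also on the mature list. Of the early genes, Il7r (2.96 ± 0.60) and Foxo1 (1.92 ± 0.53) rose, and of the plasma cell genes Ighg2c (4.45 ± 0.81). T cell genes had a median of 2.66, with Lck called (3.42 ± 0.88), and summed to 363 and 213 CPM against 70.2 and 55.8 CPM in MxCre libraries, with Cd4 as the most abundant in all 4 and Cd3e, Cd3g, Cd8b1 and Zap70 at 0 in MxCre replicate 1. Of 12 myeloid genes, 4 fell, S100a8 (-4.26 ± 0.76), S100a9 (-4.14 ± 0.82), Csf3r (-3.67 ± 0.82) and Cd14 (-3.12 ± 0.87). The myeloid genes summed to 9148 and 13250 CPM against 46030 and 103000 CPM, led by Lyz2 in the Ptpn11D61Y/+ and by S100a9 in the MxCre libraries, and none was at 0. NK cell genes were positive in 9 of 9 (median 1.255, 0 called). Without the 3 libraries with Xist and Y-linked counts, 9 mature B cell and 5 T cell genes rose and 3 myeloid genes fell. Of all genes tested, 642 then rose and 686 fell, in place of 410 and 590, although none of the 3 libraries belongs to these groups. The part of the T cell, NK cell and myeloid genes in the differences of the B cell genes was not tested.

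In BM CD11b+ cells, all 7 genes had positive log2 fold changes from MxCre to Ptpn11D61Y/+ (median 1.59 against 0.27 over all genes tested). Not 1 of the 7 was called (0.0% of all genes were). None had an unadjusted p under 0.05 with edgeR, against 4419 of the 19555 genes tested, and DESeq2 and limma-voom each called 0. Ms4a1 (2.30 ± 1.15, with 66.8 and 126 CPM against 10.3 and 28.7 CPM), Cd22 (2.05 ± 1.01), Cd79a (1.94 ± 1.06) and Ighm (1.59 ± 0.86) did not overlap between the groups of 2 libraries. The share of all genes that did not overlap is not given, here or in LSK. The MxCre libraries differed among themselves, with 14.1 and 117 CPM of Pax5 and 5.11 and 48.5 CPM of Ebf1 in replicates 1 and 2. Replicate 1 is among the libraries with the fewest genes, and replicate 2 among those with Xist and Y-linked counts. Cd79b turned from 0.28 to -0.21 without the libraries with the fewest genes. Without the libraries with Xist and Y-linked counts, which leaves replicate 1 as the only MxCre library, assumed to vary like the other groups, the 7 values ran from 1.10 (Cd79b) to 3.85 (Cd79a), with 0 called (adjusted p from 0.0745 to 0.425). Of the 20 mature B cell genes all had positive values (median 2.02), as did 14 of 15 T cell genes (median 1.45) and 7 of 9 erythroid genes (median 1.31), with 0 called in each list. T cell genes summed to 177 and 229 CPM in MxCre and 311 and 277 CPM in Ptpn11D61Y/+ libraries, with 8 of the 15 at 0 in MxCre replicate 1, among them Cd3e and Trac, and erythroid genes to 50040 and 223600 CPM against 161700 and 162300 CPM. Calls of these lists without the 3 libraries are not given, since they would rest on replicate 1 alone. The part of the T cell and erythroid genes in the result was not tested.

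In LSK, Pax5, Cd22 and Ebf1 were lower in both Ptpn11D61Y/+ libraries than in both MxCre libraries, while Ighm was higher. Pax5 had 1.26 and 0.728 CPM against 14.4 and 8.41 CPM, Cd22 had 1.33 and 0.787 CPM against 13.8 and 7.42 CPM, and Ebf1 had 1.26 and 1.24 CPM against 5.18 and 4.17 CPM. Ighm had 22750 and 20640 CPM against 10840 and 5091 CPM. The log2 fold changes were -3.52 ± 1.01, -3.32 ± 1.07, -1.91 ± 1.0 and 1.45 ± 0.86. Ms4a1 did not overlap either, with 3.20 and 3.31 CPM against 7.68 and 4.02 CPM (-0.85), whereas Cd79a (0.31) and Cd79b (-0.14) did. None was called in the fit of all 21 libraries (0.0614% of all genes were), and 2 had an unadjusted p under 0.05, against 330 of the 19555 genes tested. DESeq2 called 1 (Pax5, adjusted p = 0.0365) and limma-voom 0. In a fit of the 4 LSK libraries alone, edgeR called Pax5, Ebf1 and Cd22 (adjusted p = 0.0202, 0.0013 and 0.0337), and 2508 genes in place of 12. Of the early B cell genes, 15 of 16 had negative values (median -0.80), and all 14 plasma cell genes had positive values (median 0.80), with 0 called in either list. Myeloid genes were negative in 9 of 12 (median -1.55, 1 called) and erythroid genes in 8 of 9 (median -4.52, 0 called). The 12 myeloid genes summed to 3795 and 3096 CPM in MxCre and to 2640 and 2566 CPM in Ptpn11D61Y/+ libraries, led by Mpo in all 4. Ly6g, a neutrophil gene, fell by 8.03 ± 1.34 on the log2 scale, and the erythroid genes summed to 1541 and 840 CPM in MxCre libraries (led by Hbb-bs) and to 83.8 and 56.2 CPM in Ptpn11D61Y/+ libraries (led by Klf1), with none at 0 in these 4. Whether this had a part in the B cell genes was not tested.

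S3 cells, the leukemic ones, were compared with MxCre cells in each fraction. In spleen CD11b+ cells, S3 animals 540 and 815 exceeded both MxCre libraries in all genes except Ighm, whereas animal 640 did not. For Cd79b the levels were 266, 351 and 57.8 CPM in animals 540, 815 and 640 against 78.2 and 39.6 CPM. The log2 fold changes were 1.93 ± 0.70 for Cd79b, 2.05 ± 1.02 for Cd79a, 1.43 ± 0.93 for Cd22, 1.30 ± 0.87 for Pax5, 1.23 ± 1.05 for Ms4a1, 0.67 ± 0.90 for Ebf1 and 0.38 ± 0.77 for Ighm, with a median of 1.30 against 0.32 over all genes tested. With 1 of the 5 libraries left out, Ms4a1 ran from 0.55 (without MxCre replicate 2) to 2.62 (without MxCre replicate 1), Ebf1 from 0.0267 to 1.90 without the same libraries, and Pax5 from 0.66 (without animal 540) to 2.44 (without MxCre replicate 1). None was called, against 4.19% of all genes. With edgeR, 1 (Cd79b) had an unadjusted p under 0.05, against 4945 of the 19555 genes tested. DESeq2 called Cd79b (adjusted p = 0.0402) and limma-voom none. Of the mature B cell genes, Cd72 rose (5.37 ± 1.06), with 299, 153 and 271 CPM against 3.58 and 8.05 CPM, and it was high in animal 640 too, in which Cd79a had 8.08 CPM. Cd72 was the 1 of 20 mature B cell genes called (19 positive, median 1.27), Il7r (2.33 ± 0.56) the 1 of 16 early genes and Ighg2c (2.85 ± 0.72) the 1 of 14 plasma cell genes. Erythroid genes moved with the same groups, as 3 of 9 rose, and their sum was 14590, 15910 and 29190 CPM against 3419 and 1146 CPM, highest in animal 640 and led by Hbb-bs or Hba-a1, with Epb42 at 0 in MxCre replicate 1. T cell genes were positive in 12 of 15 (median 1.45, 0 called), with sums of 109, 129 and 25.2 CPM in animals 540, 815 and 640 against 70.2 and 55.8 CPM. Myeloid genes were negative in 9 of 12 (median -0.23), of which Csf3r fell (-3.49 ± 0.69), with sums of 62330, 28600 and 25700 CPM against 46030 and 103000 CPM. The part of these lists was not tested. Without the libraries with Xist and Y-linked counts, which include animal 540, the 7 values ran from -0.29 (Ighm) to 1.80 (Cd79b), Cd79a was at 1.47, and 1 mature, 1 early and 0 plasma cell genes were called.

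In BM CD11b+ cells, the S3 and MxCre libraries overlapped for all 7 genes, with log2 fold changes between -0.94 (Pax5) and 0.07 (Cd22). None was called (0.0% of all genes were), and DESeq2 and limma-voom called 0. With edgeR, none had an unadjusted p under 0.05, against 3022 of the 19555 genes tested. The direction depended on MxCre replicate 2, a library with Xist and Y-linked counts, without which Pax5, Ebf1 and Cd79a were at 1.30, 1.76 and 1.56, and without all 3 such libraries they were at 1.54, 1.91 and 1.35. Both fits leave replicate 1, with among the fewest genes, as the only MxCre library. T cell genes were positive in 14 of 15 (median 1.41) and stem and progenitor genes in 9 of 10 (median 0.86), with 0 called. T cell genes summed to 183, 254 and 470 CPM in animals 540, 815 and 640 against 177 and 229 CPM. The 8 T cell genes at 0 in MxCre replicate 1 had counts in all 3 S3 libraries, and the part of the T cell genes was not tested. In LSK, all 7 log2 fold changes from MxCre to S3 were negative, from -2.08 ± 1.0 (Ms4a1) to -0.07 ± 0.77 (Ighm). The LSK libraries of animals 815 and 768 held Xist and no Y-linked count, unlike the MxCre libraries, and the part of sex was not tested. Cd79a, Cd79b, Ms4a1 and Pax5 did not overlap between the groups, but the share of all genes that did not overlap is not given. Ms4a1 had 2.84, 0.886 and 0.418 CPM in animals 540, 815 and 768 against 7.68 and 4.02 CPM. None was called (0.0307% of all genes were), and none had an unadjusted p under 0.05 with edgeR, against 777 of the 19555 genes tested. DESeq2 and limma-voom called 0, whereas a fit of the 5 LSK libraries alone called Cd79b (-0.51, adjusted p = 0.0375) and 4700 genes in place of 6. Erythroid genes were negative in 8 of 9 in this LSK comparison (median -3.90, Hbb-bs called at -5.13), with sums of 116, 50.8 and 70.8 CPM in animals 540, 815 and 768 against 1541 and 840 CPM. NK cell genes were positive in 9 of 9 (median 2.22, 0 called), with sums of 132, 114 and 159 CPM against 75.8 and 68.0 CPM, and the part of either was not tested. With the libraries of both control genotypes pooled, the LSK values of Pax5, Ebf1 and Cd22 turned to 0.49, 0.52 and 0.96, and the spleen values of Ms4a1, Pax5, Ebf1, Cd22 and Ighm to -0.48, -0.45, -0.86, -0.08 and -1.22.

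S3 cells were therefore also compared with Ptpn11D61Y/+ cells, a comparison added after the levels were seen. In BM CD11b+ cells all 7 genes were lower in every S3 library than in both Ptpn11D61Y/+ libraries. The share of all genes whose groups did not overlap is not given, here or for the spleen and LSK below. Ms4a1, with 15.6, 13.8 and 10.6 CPM against 66.8 and 126 CPM, differed by -2.85 ± 1.01, and Cd79b by -1.13 ± 0.64, with a median of -1.98 over the 7. None was called (0.0% of all genes were), and DESeq2 and limma-voom called 0. With edgeR, 5 had an unadjusted p under 0.05, against 1608 of the 19555 genes tested. Erythroid genes were negative in 9 of 9 (median -1.31) and stem and progenitor genes positive in 9 of 10 (median 0.83), with 0 called. Erythroid genes summed to 68160, 124800 and 14790 CPM in animals 540, 815 and 640 against 161700 and 162300 CPM, and their part was not tested. In the spleen, all 7 were again negative and 6 did not overlap, from -2.83 ± 0.77 for Ighm to -0.81 ± 0.64 for Cd79b. None was called (0.00511% of all genes were), and 4 had an unadjusted p under 0.05 with edgeR, against 1736 of the 19555 genes tested. DESeq2 called Ighm (adjusted p = 0.0142) and limma-voom 0. Without the libraries with Xist and Y-linked counts, the 7 values ran from -2.99 (Ms4a1) to -1.08 (Cd79b) in the BM and from -3.50 (Ighm) to -0.95 (Cd79b) in the spleen, with 0 called. Markers of other cell types were read in the same spleen groups, with 0 called. NK cell genes were negative in 9 of 9 (median -3.25) and T cell genes in 12 of 15 (median -1.06), whereas erythroid genes were positive in 9 of 9 (median 3.01) and myeloid genes in 11 of 12 (median 1.36). NK cell genes summed to 25.7, 65.2 and 20.5 CPM in animals 540, 815 and 640 against 79.1 and 240 CPM, and myeloid genes to 62330, 28600 and 25700 CPM against 9148 and 13250 CPM. Their part was not tested. In LSK no gene overlapped between the groups, and Pax5 (2.25 ± 0.92), Ebf1 (1.47 ± 0.93) and Cd22 (2.62 ± 1.0) were higher in S3 and Cd79a, Cd79b, Ms4a1 and Ighm lower. None was called (0.0972% of all genes were), and 2 had an unadjusted p under 0.05 with edgeR, against 1123 of the 19555 genes tested. DESeq2 and limma-voom called 0, while a fit of the 5 LSK libraries alone called Cd22 (adjusted p = 0.0475). Myeloid genes were positive in 11 of 12 (median 1.27), NK cell genes in 8 of 9 (median 1.61) and dendritic cell genes in 6 of 6 (median 1.82), with 0 called. Myeloid genes summed to 4806, 5187 and 6077 CPM in animals 540, 815 and 768 against 2640 and 2566 CPM, led by Mpo, and the part of these lists was not tested.

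The differences between fractions were tested directly. The S3 against MxCre change was larger in the spleen than in LSK for all 7 genes, by 0.45 ± 1.08 (Ighm) to 3.31 ± 1.46 (Ms4a1) on the log2 scale, and larger in the spleen than in the BM by 0.91 ± 1.09 (Ighm) to 2.78 ± 0.94 (Cd79b). None passed the threshold in either test (0.00511% and 0.0% of all genes did), and DESeq2 and limma-voom called 0 in both. With edgeR, 4 and 1 of the 7 had an unadjusted p under 0.05, against 2614 and 2100 of the 19555 genes tested. Without the libraries with Xist and Y-linked counts, Pax5, Ebf1 and Ighm turned to -0.87, -1.77 and -0.55 between spleen and BM, and Ighm to -0.22 between spleen and LSK. The Ptpn11D61Y/+ against MxCre change, tested after the levels were seen, was larger in the spleen than in LSK by 7.02 ± 1.43 for Pax5 and 6.33 ± 1.5 for Cd22. None was called by edgeR (0.0% of all genes were), although 6 had an unadjusted p under 0.05, against 2294 of the 19555 genes tested. DESeq2 called Pax5, Ebf1 and Cd22 (adjusted p = 9.24e-05, 0.0176 and 0.00166), and limma-voom called 0.

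Pairs of the 7 genes were positively correlated in the CD11b+ libraries. Over the 14 CD11b+ libraries, Pearson's r on log2 CPM lay between 0.44 and 0.95 for pairs of the 6 genes other than Ighm (median 0.83), and between 0.67 and 0.90 for Ighm with each of them. Within a fraction the 15 pairs of the 6 genes ran from 0.14 (Cd79b with Cd22) to 0.94 in the BM (median 0.77), from 0.839 to 0.996 in the spleen (median 0.94) and from -0.38 (Cd79a with Cd22) to 0.96 (Pax5 with Ebf1) in LSK (median 0.32), over 7 libraries each. Over all 21 libraries the 6 had a median r of 0.85, and Ighm had between -0.25 and 0.16 with them. These are descriptions, since libraries share fractions and S3 animals. Of 12028 genes whose mean log2 CPM was 0 or more, the 10 most like the mean of the 7 over the 21 libraries included Spib (r = 0.947), Blk, Fcmr, Sbk1, Tubb2b, Foxo1, Chst3, Ighd and Irf4 (r = 0.901). Of the 10, 7 are on the B lineage lists, and 9 stayed among the 10 with library size alone and 8 without the 3 libraries with the fewest genes.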

How the data were processed

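RNA-seq libraries were prepared from poly(A) RNA with a TruSeq kit (a stranded one by the study's methods, a standard one by the labels), and the authors deposited raw read counts per Ensembl gene, 1 table per library. The submitters' processing notes name bcl2fastq (2.20.0.422), FastQC (0.11.9), Trim Galore (0.6.5), STAR (2.5.3a) and limma. The counting program, the annotation and the use of strand in counting are not given in the sources used here. Of 45706 identifiers, 45143 were matched to a symbol. The 7 genes and all gene lists were chosen with earlier results of these data known.

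Counts of all 21 libraries were fitted together in edgeR (4.0.16, R 4.3.3; quasi-likelihood test, robust) with 9 groups, TMM factors and filterByExpr (minimum count 10, minimum total 15), which kept 19555 genes with 99.99% of the counts and left 12 residual degrees of freedom. P-values were adjusted by Benjamini-Hochberg over all genes tested and called at an adjusted p under 0.05. Comparisons between fractions average the 3 genotypes equally. DESeq2 (1.42.0), limma-voom (limma 3.58.1), other scalings, no filter, fits of the compared groups alone, pooled controls, a replicate block and fits without single libraries or the 3 with the fewest genes were alternatives, and leaving out the 3 libraries with Xist and Y-linked counts was added after the data were seen. Named were the 7 genes, at most the 4 called genes of largest change per list and comparison, and the 10 genes most like the mean of the 7. Marker and stage genes beside them are given as levels. A check of the tests on simulated data was run, and its values are not given here. Sex-linked counts of Ptpn11D61Y/+ replicate 1 differed between fractions. S3 numbers stand in the sample titles without a word on what they count and were read as animals, although the sex-linked counts of 540 differed between fractions too. Some list genes are not reported here.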

Additional observations from a re-analysis of the deposited data

How the results depend on the processing

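The BM against LSK differences were the ones that held, with 7 of the 7 genes called under each alternative and with any 1 library left out (7 to 7). The calls in the spleen did not. The number of the 7 genes called between Ptpn11D61Y/+ and MxCre spleen cells was 1 in the fit reported and became 5 with library size alone, 0 without the filter, 7 with DESeq2, 3 with limma-voom, 2 in the compared groups alone, 4 without the 3 libraries with the fewest genes and 0 to 1 with 1 library left out. Between spleen and BM it was 1 and became 0 with library size alone, without the filter, with limma-voom, in the compared groups alone and without the libraries with Xist and Y-linked counts, 2 with DESeq2, and 0 to 2 with 1 library left out. DESeq2 also called 1 in S3 against MxCre spleen cells, 1 in Ptpn11D61Y/+ against MxCre LSK, 1 in S3 against Ptpn11D61Y/+ spleen cells and 3 in the Ptpn11D61Y/+ change between spleen and LSK, in each of which edgeR called 0. The compared groups alone gave 1 in S3 against MxCre LSK, 3 in Ptpn11D61Y/+ against MxCre LSK, 1 in S3 against Ptpn11D61Y/+ LSK and 3 in the Ptpn11D61Y/+ change, for which 1 was called without the libraries with the fewest genes. The cause was not tested.

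Some log2 fold changes changed sign, none of them called. For S3 against MxCre BM cells, Cd79a turned to 0.0149 with library size alone and 0.15 with limma-voom, and Cd22 to -0.0643 with limma-voom. With both controls pooled, Pax5, Ebf1 and Cd22 turned to 0.49, 0.52 and 0.96 in LSK, Cd22 to -0.96 in the BM, and Ms4a1, Pax5, Ebf1, Cd22 and Ighm to -0.48, -0.45, -0.86, -0.0776 and -1.22 in the spleen. Without the libraries with the fewest genes, Cd79b turned to -0.21 in Ptpn11D61Y/+ BM cells, and Ms4a1 and Ighm to -0.0671 and -0.35 in spleen against BM. Without the libraries with Xist and Y-linked counts, chosen after seeing the data, S3 against MxCre BM values of Cd79a, Cd79b, Ms4a1, Pax5, Ebf1 and Ighm turned to 1.35, 0.0107, 0.26, 1.54, 1.91 and 0.26, the spleen value of Ighm to -0.29, the spleen against BM value of Cd79a to 0.21, the S3 change of Ighm between spleen and LSK to -0.22, and the S3 changes of Pax5, Ebf1 and Ighm between spleen and BM to -0.87, -1.77 and -0.55.

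With 1 library left out, the following ranges spanned 0. In S3 against MxCre BM cells they were -1.12 to 1.56 for Cd79a, -1.10 to 0.38 for Ms4a1, -1.76 to 1.30 for Pax5, -1.49 to 1.76 for Ebf1, -0.91 to 0.43 for Cd22 and -1.03 to 0.29 for Ighm. Ighm ranged from -0.51 to 0.58 in S3 against MxCre LSK, from -0.36 to 2.08 in the spleen, from -0.29 to 2.15 in the S3 change between spleen and LSK and from -0.22 to 0.62 in spleen against BM. Cd79a ranged from -0.21 to 0.70 in Ptpn11D61Y/+ against MxCre LSK and from -0.55 to 0.34 in spleen against BM, Cd79b from -0.21 to 1.10 in Ptpn11D61Y/+ against MxCre BM cells, and Ebf1 from -1.08 to 2.54 in the S3 change between spleen and BM.

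The number of all genes called moved widely. It was 1000 for Ptpn11D61Y/+ against MxCre spleen cells, 0 to 610 with 1 of the 4 libraries left out and 272 to 3381 over the other alternatives. In the same order, the reported number and its range over those other alternatives were 819 and 0 to 3409 for S3 against MxCre spleen cells, 2730 and 882 to 4255 for spleen against BM, 6 and 1 to 4700 for S3 and 12 and 3 to 2508 for Ptpn11D61Y/+ against MxCre LSK, 0 and 0 to 1093 and 0 and 0 to 2445 for the same in the BM, 1 and 0 to 827 and 0 and 0 to 529 for the S3 changes from LSK and from BM to spleen, 19 and 14 to 5223, 0 and 0 to 256 and 1 and 0 to 385 for S3 against Ptpn11D61Y/+ in LSK, BM and spleen, and 0 and 0 to 633 for the Ptpn11D61Y/+ change. With library size alone, the split of higher and lower calls moved from 296 and 523 to 661 and 256 for S3 spleen cells, from 410 and 590 to 1429 and 278 for Ptpn11D61Y/+ spleen cells, and from 5243 and 6175 to 2706 and 9856 for BM against LSK.

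With the replicate number as a block in the 12 control libraries, 2 of the 7 genes were called in Ptpn11D61Y/+ against MxCre spleen cells (Cd22 and Ighm, adjusted p = 0.0432 and 0.042), and Cd79b was not (adjusted p = 0.0746). With the animal or number as a block between fractions, 7 and 1 were called in BM against LSK and spleen against BM, the 1 being Cd79b (-0.91, adjusted p = 0.0402) in place of Ebf1. Within a fraction, the deviations of same-numbered MxCre and Ptpn11D61Y/+ libraries from their group means had correlations of -0.0406, -0.0306 and -0.0019. So few values cannot tell whether the control numbers paired any samples. Each value stands for both numbers of a fraction, because the deviations of 2 libraries from their mean mirror each other. Between fractions the correlations ran from -0.173 to 0.407 over 19 pairs, of which 3 exceeded 0.1. These were the BM and spleen libraries of S3 animals 540, 815 and 640 (0.108, 0.407 and 0.333). No paired analysis was possible because S3 animals share no number with the controls for S3 against MxCre or Ptpn11D61Y/+ within a fraction. The lowest count behind a value of the 7 genes was 56.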

Other observations

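The variable genes of the immunoglobulin loci were not part of the comparisons. The tables held 113 Ighv, 100 Igkv and 3 Iglv genes, which are multigene families, so the split of reads between near-identical members is uncertain, and the intervals given are 95% Wilson intervals for counting error only. In spleen CD11b+ libraries single variable genes often took a large share. In MxCre replicate 1, Ighv4-1 held 54.0% (51.9 to 56.1) of 2169 Ighv counts and Igkv1-88 held 66.1% (65.2 to 67.1) of 9275 Igkv counts. In Ptpn11D61Y/+ replicate 1, the spleen library with the highest Ighm level, Igkv5-39 held 68.0% (67.9 to 68.2) of the Igkv counts and Ighv1-62-2 held 26.5% (26.2 to 26.9) of the Ighv counts. In Ptpn11D61Y/+ replicate 2, Igkv5-39 held 17.0% (16.7 to 17.3) and the leading Ighv gene, Ighv1-53, held 8.52%.

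In the libraries labelled S3 animal 540, of which the BM and spleen ones held Xist and Y-linked counts and the LSK one 1 count of Xist, the same variable genes led in 2 fractions. Ighv1-15 held 25.7% (25.5 to 25.9) of the Ighv counts in LSK and 28.1% (27.4 to 28.9) in the spleen, and Igkv1-110 held 30.7% (30.5 to 30.8) and 29.6% (29.1 to 29.99) of the Igkv counts. In the BM CD11b+ library of that label, the leading genes were Ighv1-53 at 6.66% and Igkv8-27 at 9.34%. In the spleen of animal 640, in which the 7 B cell genes were low, Ighv4-1 held 24.3% (23.3 to 25.3) and Igkv1-110 held 41.3% (40.4 to 42.1). Igkv1-110 was not particular to these libraries. It also led the Igkv counts in LSK of animal 815 (9.41%), BM of animal 640 (12.6%) and spleen MxCre replicate 2 (7.29%).

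Lambda light chains made up 0.481% to 3.89% of light chain constant counts in LSK, 3.77% to 7.49% in BM CD11b+ and 1.64% to 10.6% in spleen CD11b+ libraries, so LSK libraries lay at the low end.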
